A study of Mus musculus with 12 samples.

Results

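The replication-dependent histone genes are the 67 genes, of 52636 in the count table, whose Ensembl identifiers map to symbols of the Hist1, Hist2, Hist3 and Hist4 clusters, pseudogenes excluded. They comprise 6 genes of the linker histone H1 and 18, 18, 12 and 13 genes of the core histones H2A, H2B, H3 and H4. By cluster, 54 belong to Hist1 (chromosome 13 of GRCm38.p6), 10 to Hist2 (chromosome 3), 2 to Hist3 (chromosome 11) and 1 to Hist4 (chromosome 6). In this order of families 5, 13, 15, 10 and 13 genes, 56 in all, had enough counts to be tested, and 11 were not tested. Hist1h2aa, Hist2h2aa1, Hist2h2aa2, Hist2h2bb, Hist2h3b and Hist2h3c1 were at 0 in all 12 libraries, where a floor of 3 counts over the 12 allows up to 0.0201 CPM. Hist1h2ao, Hist1h2ap, Hist1h2bq and Hist1h2br had at most 20 counts in all, and Hist1h1t was also too low.

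The study measured RNA in mouse salivary glands dissected at E13.5 and cultured for 2 days on permeable membranes. Glands of wild-type genotype received either the solvent DMSO (3 libraries) or 2.5 µM SU5402, a small-molecule inhibitor of FGF receptor kinases, labelled FGFRi (3 libraries). Untreated glands came from a cross in which Cre recombinase, driven by the keratin 14 promoter, deletes Fgfr2b, the epithelial isoform of an FGF receptor. HOM glands are labelled -/-, HET glands heterozygous and WT glands wild-type, with 2 libraries for each of the 3 genotypes, and HET and WT are littermate controls of HOM. The labels do not say which controls carry the Cre gene. The comparisons ask how blocking FGF receptors, chemically or by deletion in keratin 14-expressing epithelium, alters the gland. The labels state neither the strain nor whether a library is 1 embryo or a pool of glands. The p-values therefore measure how far these libraries spread, and that spread may be technical.

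Replication-dependent histone genes supply the protein that packages newly copied DNA, and their RNA accumulates in S phase. The RNA has no poly(A) tail: it ends just past a stem-loop that is bound by the protein Slbp and cut by a complex containing the U7 small nuclear RNA. The genes lie in dense clusters that are transcribed in a nuclear compartment, the histone locus body, around the protein Npat. The libraries were made by removing ribosomal RNA and not by selecting poly(A) tails, so these transcripts are counted.

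The stem-loop is shown first because it defines this RNA class. The pattern GGNNNTTNTCANNNCC, on the sense strand after the stop codon, was found in annotated transcripts of 36 of the 52 members with 30 or more annotated bases there. It was found in 235 of 50944 other transcripts (0.461%). The 26 H1, H2A, H2B and H3 genes with a match all carried the letters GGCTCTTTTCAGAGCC, whereas 10 H4 genes carried 3 other forms. Capitals mark the 16 letters of the match in the mouse transcripts of GENCODE M21, with flanking bases in lower case.
Hist1h1e: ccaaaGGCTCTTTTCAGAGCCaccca
Hist1h2bf: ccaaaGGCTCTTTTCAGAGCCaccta
Hist1h4d: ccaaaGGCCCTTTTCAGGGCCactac
Hist1h4f: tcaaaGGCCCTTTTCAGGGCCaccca
Hist1h4j: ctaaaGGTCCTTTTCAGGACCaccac
Hist1h4a: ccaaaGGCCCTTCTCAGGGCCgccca
The form of Hist1h4d and Hist1h4f was shared by 7 H4 genes, that of Hist1h4j by 2, and that of Hist1h4a was found in 1.

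RefSeq promoter windows (250 bases before to 50 after the start, build GRCm38.p6) were matched for 61 members. The 4 motifs below were each searched on both strands, and overlaps between them were allowed. CCAAT was present in each of the 6 H1, 17 H2A, 16 H2B and 10 H3 windows, in 3 of 12 H4 windows, and in 37.4% of all 32851 promoter windows. TATAAA was in 57.4% of the members' windows and 13.6% of all windows. The octamer ATTTGCAT was in 7 H2A and 6 H2B windows, in none of the H1, H3 or H4 windows, and in 1.74% of all. AAACACA, an H1 promoter motif, was in 5 of 6 H1, 2 of 17 H2A and 2 of 16 H2B windows. It was in none of the H3 or H4 windows and in 7.18% of all. An absent match says only that these letters are not in the window. The windows of the most abundant H1 gene, of an H2B gene paired with an H2A gene, and of the most abundant H4 gene per coding length are shown, with matches in capitals on either strand.
Hist1h1e, chr13:23622509-23622808, minus strand: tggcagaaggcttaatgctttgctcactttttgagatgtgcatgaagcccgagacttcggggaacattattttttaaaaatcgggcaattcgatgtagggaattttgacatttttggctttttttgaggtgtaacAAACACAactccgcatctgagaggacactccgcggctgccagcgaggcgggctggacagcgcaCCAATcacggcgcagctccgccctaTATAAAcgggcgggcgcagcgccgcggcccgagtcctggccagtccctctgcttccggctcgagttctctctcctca
Hist1h2bf, chr13:23574158-23574457, minus strand: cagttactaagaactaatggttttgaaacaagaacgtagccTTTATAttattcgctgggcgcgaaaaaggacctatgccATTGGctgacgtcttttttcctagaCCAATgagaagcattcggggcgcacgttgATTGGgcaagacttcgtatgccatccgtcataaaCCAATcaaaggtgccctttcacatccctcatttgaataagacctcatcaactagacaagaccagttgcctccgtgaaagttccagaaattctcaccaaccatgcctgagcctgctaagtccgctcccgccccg
Hist1h4d, chr13:23581318-23581617, plus strand: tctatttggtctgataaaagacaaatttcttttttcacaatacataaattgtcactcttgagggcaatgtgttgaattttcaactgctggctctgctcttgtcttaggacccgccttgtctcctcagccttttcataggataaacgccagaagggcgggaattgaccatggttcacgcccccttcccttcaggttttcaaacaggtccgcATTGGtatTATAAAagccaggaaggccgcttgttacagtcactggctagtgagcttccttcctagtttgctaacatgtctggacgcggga
The window of Hist1h2bf shares 273 bases with that of Hist1h2ad on the other strand. In all, 9 pairs of windows overlapped on opposite strands, by 220 to 279 bases, and each paired an H2A with an H2B gene.

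Total counts per library ran from 6043701 to 22322182. Xist and Ddx3y marked 7 libraries as female (DMSO 1 and 3, all of FGFRi, all of HOM) and 5 as male (DMSO 2, all of WT, all of HET). In HOM against controls genotype and sex therefore cannot be told apart. DMSO was the only group with both sexes, so a covariate for sex is set by DMSO 2 against DMSO 1 and 3. All 15 epithelial, 12 mesenchymal and 12 skeletal muscle marker genes were detected in every group. Levels are given as CPM, counts scaled to the TMM-normalised library size. Epithelial markers summed to 3025-3521 CPM (DMSO), 2402-2561 (FGFRi), 2976-3086 (WT), 2551-2790.3 (HET) and 1989-2089.8 (HOM). Mesenchymal markers summed to 1861-1987, 3171-4554, 2054-2121, 2971-3304 and 3299-3435 CPM in the same order of groups, and muscle markers to 32.2-97.9, 192-833, 17.2-21.8, 121-227 and 230.0-248 CPM. With the inhibitor 12 of 15 epithelial markers fell and 1 rose, and 10 of 12 mesenchymal and all 11 tested muscle markers rose. Over all genes 10.7% fell and 9.73% rose. In HOM against controls 7 epithelial markers were lower, and 7 mesenchymal and 8 muscle markers higher. The shares over all genes were 2.44% lower and 3.44% higher. The part of these cell types in the histone results was not tested, and in bulk RNA fewer cells of a type and less RNA per cell cannot be told apart.

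Histone paralogs are so alike that the counted level of single genes depends on how reads that fit several genes were assigned, a step the labels do not describe. Coding sequences of H3 genes were 93.7% to 100% identical between members and those of H4 genes 85.3% to 100%. For 19 of the 67 members under 5% of the 50-base windows of the coding sequence were absent from the transcripts of other genes. These 19 genes had a median level of 2.68 CPM per coding kb, and 9 of them had at most 20 counts over all libraries. The 22 genes with at least 30% unique windows had a median of 221 CPM per coding kb, and the 26 in between 128. In all 10 genes shared their whole coding sequence with another member, among them Hist1h4m with Hist1h4n. How far this sets the level of a gene was not tested.

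**Figure D1:**
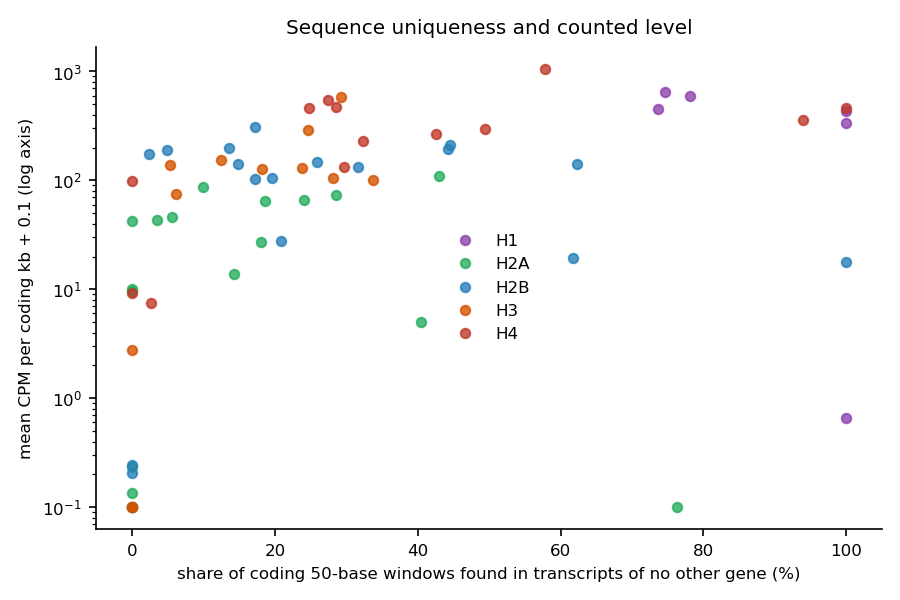
Each point is 1 of the 67 histone genes. The x axis is the share of its 50-base coding windows found in transcripts of no other gene (%), the y axis its mean level over 12 libraries in CPM per coding kb plus 0.1, on a log axis. Genes under 5% span 0 to 190.4 CPM per coding kb, and the highest point is the H4 gene Hist1h4d at 1055.

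Per coding length the H4 genes together gave 4391 CPM per kb (mean over 12 libraries), H1 2466, H2B 2109.7, H3 1710.2 and H2A 597. The H1 genes had the most unique sequence (median 89.1% of windows) and the H2A genes the least (median 7.70%), and H4 genes stood at 29.7%. Within H1, Hist1h1e was counted at 654 CPM per coding kb, Hist1h1c at 591, Hist1h1d at 453, Hist1h1b at 431 and Hist1h1a at 337. Hist1h1t, the testis linker histone, was at 0.557 CPM per coding kb. The most abundant core genes on the same scale were Hist1h4d (1055), Hist1h3e (586), Hist1h2bl (309) and Hist1h2ak (109.9).

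The summed level over all 67 genes was lower with the inhibitor. The DMSO libraries 1 to 3 read 5897, 5489 and 5469 CPM and the FGFRi libraries 3640.3, 3789 and 4094, that is 5618 ± 242 against 3841 ± 231 CPM (SD, n = 3 each). The 2 groups did not overlap, and the log2 ratio was -0.55, or -0.17 with libraries scaled to epithelial markers. In the cross the WT libraries read 5421 and 5495 CPM, the HET libraries 4494 and 3631, and the HOM libraries 4722 and 4590.2. HOM therefore lay below WT and above HET, with a log2 ratio to the mean of both of -0.01 (-0.23 against WT alone and 0.20 against HET alone, 0.14 scaled to library totals and 0.47 to epithelial markers), and DMSO was close to WT, with a log2 ratio of 0.041. These are descriptions of sums, with no test.

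The sum was lower with the inhibitor in each family. The H4 sum was 1611, 1599 and 1665 CPM in DMSO and 941, 873 and 1123 in FGFRi, a log2 ratio of -0.74. The H2A sum was 286, 302 and 287 against 164, 186 and 202 (log2 ratio -0.67), and the H2B sum 1059, 947 and 916 against 678, 679 and 713 (-0.49). The H1 sum was 2054, 1857 and 1866 against 1250.5, 1416 and 1465 (-0.49), and the H3 sum 886, 785 and 735 against 607, 634 and 589.8 (-0.39). In none of the 5 families did a DMSO and an FGFRi library overlap. H4 made up 29.0 ± 1.57% of the histone sum in DMSO and 25.4 ± 2.22% in FGFRi (SD, n = 3 each), and the shares of DMSO 1 and FGFRi 3 overlapped.

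**Figure D2:**
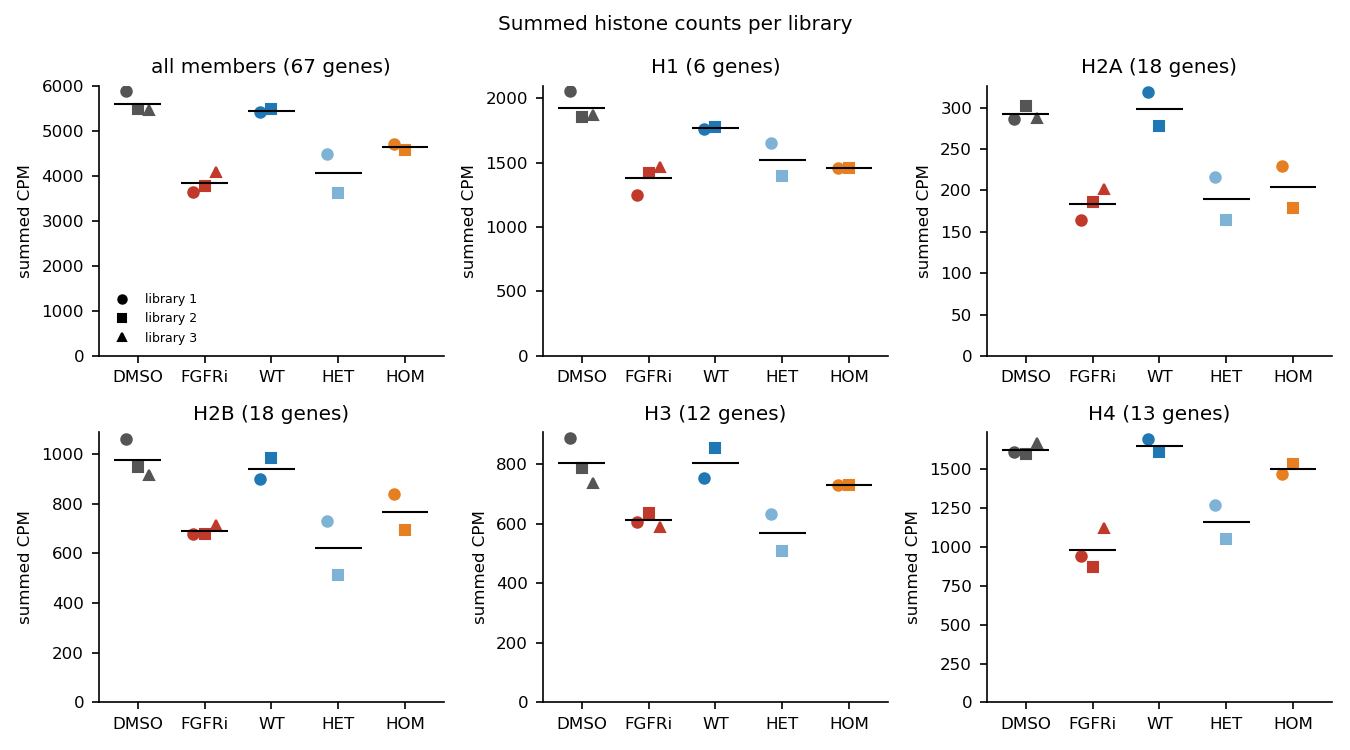
Summed TMM-normalised CPM per library (y axes, from 0) for all 67 genes and for each family, by group (x axes). Symbols tell libraries 1 to 3 of a group apart and lines are group means. Every FGFRi library lies below every DMSO library in all 6 panels, and HET lies below WT in all 6.

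With the inhibitor 37 of the 56 tested histone genes fell and 0 rose, against 10.7% of all 15859 genes called lower and 9.73% called higher (edgeR quasi-likelihood test, Benjamini-Hochberg adjusted p under 0.05). The median log2 change was -0.57 over the histone genes and -0.02 over all genes. In 39 of the 56 every FGFRi library lay below every DMSO library, which held for 20.5% of all genes. At an unadjusted p under 0.05 the counts were 44 lower and 0 higher, and DESeq2 called 31 lower and 0 higher. By family 5 of 5 H1, 9 of 13 H2A, 9 of 15 H2B, 4 of 10 H3 and 10 of 13 H4 genes fell. Without FGFRi 1 the count was 24, and 21 of the 37 calls held in all 6 fits that left out 1 library. A covariate for sex left 28 calls, against 7.03% of all genes lower in that fit. That fit sets FGFRi against DMSO 1 and 3, since DMSO 2 is the only male library of these groups. Scaling to library totals left 20 (1.8% of all genes) and scaling to the epithelial markers 9 (1.29%). The latter moved the median of all genes to 0.38. The histone median minus that of all genes was -0.57, and -0.55 in the main fit. Scaling shifts all genes alike, so this difference cannot test the choice of scaling.

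Among linker histones, which bind DNA between nucleosomes, Hist1h1d (ENSMUSG00000052565) was at 385, 370.0 and 334 CPM in DMSO and 228, 264 and 238 in FGFRi. The log2 change, given with its SE here and below, was -0.58 ± 0.10 (adjusted p = 7.44e-04), so the gene fell. Hist1h1c went from 486, 433 and 439 CPM to 261, 304 and 348 and fell by 0.57 ± 0.10 (adjusted p = 9.85e-04). The 2 groups did not overlap for either gene. Hist1h1e was at 547, 467 and 516 CPM in DMSO and 334, 374 and 397 in FGFRi, and Hist1h1b at 367, 325 and 349 against 235, 260.5 and 273. They fell by 0.47 ± 0.09 and 0.43 ± 0.08 (adjusted p = 0.00304 and 0.00164). Hist1h1a was the fifth H1 gene to fall, by 0.30 ± 0.08 (adjusted p = 0.0187), the smallest change of the family and one not called without DMSO 1, DMSO 2 or FGFRi 1 (adjusted p = 0.0716, 0.0706 and 0.134). DMSO and FGFRi libraries did not overlap in any of the 5 genes. With libraries scaled to epithelial markers none of the 5 calls held, and the estimate for Hist1h1a was 0.083 against -0.06, -0.19, -0.19 and -0.09 for Hist1h1b, Hist1h1c, Hist1h1d and Hist1h1e.

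Among H2A genes, Hist1h2ak was at 56.3, 55.8 and 55.3 CPM in DMSO and 25.7, 33.5 and 37.3 in FGFRi. It fell by 0.77 ± 0.13 (adjusted p = 6.81e-04). Hist1h2ai, at 33.3, 49.3 and 45.5 CPM against 15.0, 23.8 and 23.6, fell by 1.01 ± 0.19 (adjusted p = 0.00191). Both genes were lower in each treated library than in each control library. Hist2h2ab was at 3.18, 2.97 and 2.46 CPM in DMSO and 1.10, 0.972 and 1.38 in FGFRi, and its fall of 1.27 ± 0.30 (adjusted p = 0.00766) was the largest estimate among the 37 called genes. Hist1h2ag fell by 0.70 ± 0.16, but none of its 50-base windows is unique to it. Hist2h2ac fell by 0.43 ± 0.14 (adjusted p = 0.0398), a call lost without DMSO 2, FGFRi 1 or FGFRi 2 (adjusted p = 0.190, 0.0914 and 0.208). Hist1h2ab, at 31.2 ± 1.22 CPM in DMSO and 27.5 ± 1.83 in FGFRi (SD, n = 3 each), did not pass, with an estimate of -0.17 ± 0.13 that was 0.22 when libraries were scaled to epithelial markers.

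Among H2B genes, Hist1h2bm was at 104, 91.2 and 105 CPM in DMSO and 56.0, 54.3 and 71.3 in FGFRi. It fell by 0.71 ± 0.13 (adjusted p = 0.00127). Hist1h2bl, the highest H2B gene, went from 164, 146 and 155 CPM to 103, 102 and 125 and fell by 0.48 ± 0.10 (adjusted p = 0.00444). Hist3h2ba, which lies outside the large cluster, was at 82.6, 64.1 and 72.1 CPM against 44.0, 48.3 and 54.0 and fell by 0.56 ± 0.11 (adjusted p = 0.00286). In each of these genes the groups were fully separate. Hist1h2bk, with under 5% of its windows unique, fell by 0.52 ± 0.11. Hist1h2bb and Hist1h2bn did not pass: their estimates were -0.35 ± 0.16 and -0.30 ± 0.17, and 0.048 and 0.079 with epithelial scaling. In the 7 pairs of H2A and H2B genes that share a promoter window and were both tested, both estimates were below 0. Estimates were below 0 in 54 of all 56 tested histone genes, against 8240 of all 15859 genes. In the pair printed above the estimates were -0.97 for Hist1h2ad, which did not pass (adjusted p = 0.0705), and -0.78 for Hist1h2bf, which did.

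Of the H3 genes 4 of 10 fell, with a median log2 change over the 10 of -0.39. Hist1h3e, the highest of them, was at 307, 266 and 323 CPM in DMSO and 197, 220.3 and 265 in FGFRi. The lowest control and the highest treated library almost met, and the fall of 0.39 ± 0.10 (adjusted p = 0.0163) was lost as a call without DMSO 3, FGFRi 1 or FGFRi 2 (adjusted p = 0.0587, 0.122 and 0.0816). Hist1h3b, at 67.6, 65.0 and 66.3 CPM against 43.9, 46.4 and 52.5, fell by 0.47 ± 0.11 (adjusted p = 0.00874, and 0.0600 without FGFRi 1). Hist1h3i fell by 0.35 ± 0.09 (adjusted p = 0.0135, and 0.0914 without FGFRi 2), with an estimate of 0.032 under epithelial scaling. Hist1h3d, at an adjusted p of 0.0499, was no longer called in any of the 6 fits without 1 library. Hist1h3c, at 131, 121 and 66.0 CPM in DMSO and 80.4, 82.3 and 49.6 in FGFRi, had an estimate of -0.62 ± 0.21 (adjusted p = 0.0537). Its library 3 was the lowest in both groups, and without DMSO 3 the estimate was -0.86 (adjusted p = 0.00281).

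The 5 smallest p-values of the 56 belonged to H4 genes, Hist1h4a among them. Hist1h4d (ENSMUSG00000061482) was at 377, 370.3 and 368 CPM in DMSO and 239, 219 and 248 in FGFRi, a fall of 0.66 ± 0.09 (adjusted p = 1.12e-04). Hist1h4h went from 196, 191 and 202 CPM to 96.0, 99.8 and 135 and fell by 0.82 ± 0.11 (adjusted p = 1.42e-04). Hist1h4k, at 161, 192 and 187 CPM against 95.05, 94.8 and 124, fell by 0.78 ± 0.11 (adjusted p = 3.11e-04). Groups were separate in all 3 genes, and the FGFRi 3 library was the highest of its group. Hist2h4, in the Hist2 cluster, fell from 126, 125 and 135 CPM to 75.0, 73.8 and 97.2, by 0.64 ± 0.10 (adjusted p = 3.83e-04). Hist4h4, the single gene of the Hist4 cluster, was at 187, 159.8 and 197 CPM against 128, 121 and 159. Its fall of 0.40 ± 0.10 (adjusted p = 0.0126) was lost as a call without FGFRi 1 or FGFRi 2 (adjusted p = 0.0813 and 0.0911). Genes with each form of the stem-loop fell: besides Hist1h4d, Hist1h4j by 0.97 ± 0.16 (adjusted p = 6.89e-04) and Hist1h4a by 0.88 ± 0.14 (adjusted p = 5.18e-04), both named here after their values were seen.

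**Figure D3:**
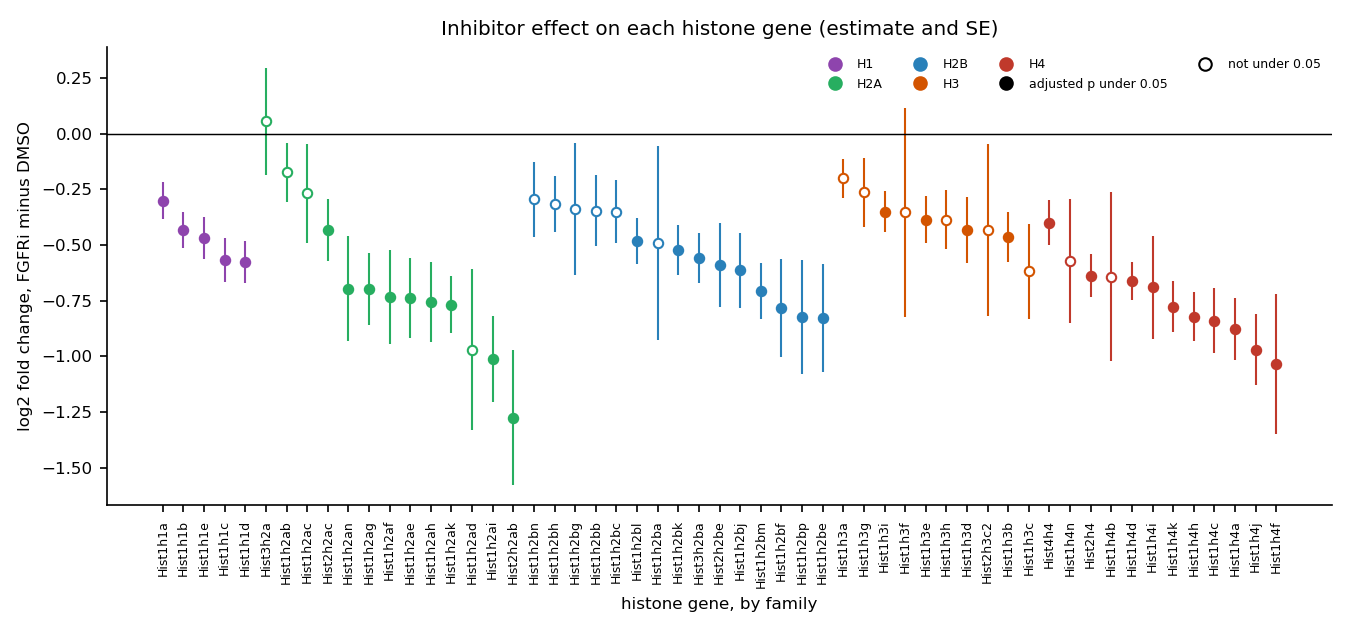
Log2 fold change of FGFRi minus DMSO (y axis) for 55 tested histone genes, ordered by family (x axis, colours), with bars of 1 SE. Filled points have an adjusted p under 0.05 and open points do not, and 37 filled points all lie below 0. Hist1h4m, read at 3 counts or fewer per group, is left out.

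Genes of DNA replication and S phase were also lower with the inhibitor: 19 of 32 fell and 0 rose (25 and 0 at an unadjusted p under 0.05, edgeR), with a median log2 change of -0.31. The shares over all genes were 10.7% and 9.73%. Pold1, the catalytic subunit of a replicative DNA polymerase, fell by 0.57 ± 0.09 (adjusted p = 6.48e-04), and Uhrf1, which couples DNA methylation to replication, by 0.48 ± 0.08 (adjusted p = 7.45e-04). Rrm2, a subunit of ribonucleotide reductase, fell by 0.47 ± 0.09, and Ung, a uracil DNA glycosylase, by 0.53 ± 0.11. The 32 genes summed to 2548, 2395 and 2347 CPM in DMSO and 1828, 1982 and 2007 in FGFRi. Histone RNA was lower relative to this sum too. The ratio of the 2 sums was 2.31, 2.29 and 2.33 in DMSO and 1.99, 1.91 and 2.04 in FGFRi, while WT read 2.22 and 2.16, HET 1.88 and 1.58, and HOM 2.08 and 1.96. DMSO and WT libraries were the 5 highest. The ratio needs no library scaling, and it carries no test.

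**Figure D4:**
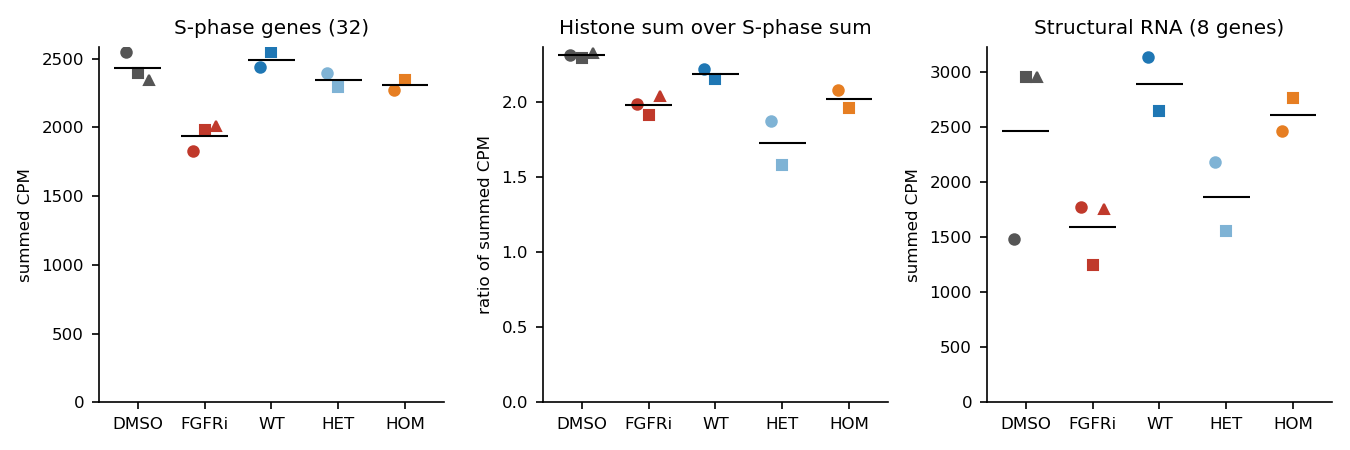
Per library and group (x axes): summed CPM of 32 S-phase genes (left), the ratio of the histone sum to that sum (middle), and summed CPM of 8 structural non-polyadenylated RNAs (right), with lines at group means. The ratio is lowest in HET 2 at 1.58 and highest in DMSO 3 at 2.33, and DMSO 1 lies apart in the right panel at 1483 CPM.

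Of 22 factors that transcribe and process histone RNA, 5 fell and 0 rose (7 and 1 at an unadjusted p under 0.05), with a median log2 change of -0.11. Over all genes 10.7% fell and 9.73% rose with the inhibitor. Snrpb and Sympk, a core protein of small nuclear ribonucleoproteins and a scaffold of the cleavage complex, fell by 0.34 ± 0.08 and 0.30 ± 0.08 (adjusted p = 0.00852 and 0.0115). Upf1, a helicase of RNA decay, fell by 0.28 ± 0.08, and Lsm11, a protein of the U7 particle, by 0.40 ± 0.11 (adjusted p = 0.0200 and 0.0229). Of 19 histone chaperones 5 fell and 0 rose (median -0.17), among them Supt16 by 0.30 ± 0.07 and Ssrp1 by 0.34 ± 0.08, the 2 subunits of the FACT complex. Of 11 replication-independent variants 6 fell and 0 rose (median -0.26). H2afz, the H2A.Z variant, fell by 0.68 ± 0.10 (adjusted p = 2.55e-04) and H1f0, the linker histone of resting cells, by 0.50 ± 0.09 (adjusted p = 9.60e-04). The ratio of the histone sum to the sum of these variants was 2.91 ± 0.0562 in DMSO and 2.46 ± 0.105 in FGFRi (SD, n = 3 each).

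Other RNA without a poly(A) tail was measured beside the histone sum. The 8 structural RNAs, such as those of RNase P and telomerase, summed to 1483, 2963 and 2963 CPM in DMSO and 1773, 1254 and 1759 in FGFRi. DMSO 1 was lower than 2 of the treated libraries, although its histone sum was the highest of all. In the cross WT libraries had 3137 and 2653 CPM, HET libraries 2185 and 1555, and HOM libraries 2466 and 2766. Of the 8 genes 1 fell with the inhibitor, against 10.7% of all genes: Rpph1, by 1.08 ± 0.27 (adjusted p = 0.0100). All 8 estimates were below 0, against 8240 of all 15859 genes. Their median log2 change was -0.60, beside -0.57 over the histone genes. At an unadjusted p under 0.05 (edgeR) 3 of the structural RNAs were lower and 0 higher. Their part in the histone results was not tested. Among the 4 members known also to make polyadenylated RNA, Hist1h1c, Hist4h4 and Hist2h2be fell, and Hist1h2bc did not pass (log2 change -0.35, adjusted p = 0.0934). The call of Hist2h2be (adjusted p = 0.0371) held in 1 of the 6 fits without 1 library.

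In HOM against the mean of WT and HET, 9 of 56 histone genes were called higher and 3 lower, against 3.44% and 2.44% of all genes. The median log2 difference was -0.11 over the histone genes (-0.15 without Hist1h4m and Hist1h2ba, which lack a usable fold) and 0.00055 over all genes. DESeq2 called 7 higher and 4 lower. The 3 lower genes were Hist1h4j, Hist1h2bm and Hist1h1c. Hist1h4j read 105 and 97.8 CPM (WT), 101 and 70.4 (HET), and 56.9 and 53.9 (HOM), a log2 difference of -0.76 ± 0.16 (adjusted p = 0.0126). Hist1h2bm read 81.6 and 88.1, 74.6 and 55.2, and 53.7 and 43.5 CPM in the same order (-0.62 ± 0.13, adjusted p = 0.0134). Hist1h1c read 439 and 401, 418 and 379, and 309 and 317 CPM (-0.39 ± 0.10, adjusted p = 0.0424). HOM libraries were the lowest of the cross in these 3 genes. Each of the 3 had also fallen with the inhibitor, as had 37 of all 56 tested histone genes.

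In 8 of the 9 genes called higher in HOM, HET was the lowest group. Hist1h3f read 55.5 and 59.1 CPM (WT), 0.757 and 0.643 (HET), and 107 and 102 (HOM), a log2 difference of 4.03 ± 0.60 (adjusted p = 0.00128). Hist1h4f read 133 and 123, 41.6 and 26.5, and 172 and 184 CPM in the same order (1.43 ± 0.30, adjusted p = 0.0110). Hist1h2be read 44.9 and 46.4, 19.0 and 11.3, and 66.8 and 52.2 CPM (1.17 ± 0.24, adjusted p = 0.00925). In these genes WT lay between HET and HOM. Hist1h2bf (log2 difference 0.89 ± 0.21) and Hist1h3g (0.80 ± 0.15) had the same order, while in Hist1h2bg (1.19 ± 0.30) WT and HOM libraries overlapped. Hist4h4, on another chromosome, read 163 and 177 CPM (WT), 63.4 and 56.0 (HET), and 156 and 163 (HOM). Both HOM libraries lay below both WT libraries although the difference from all controls was 0.66 ± 0.11 (adjusted p = 0.00193). Hist1h4i, the gene in which HET was not lowest, was higher by 0.94 ± 0.24 (adjusted p = 0.0327). Against HET alone 11 histone genes were higher and 0 lower in HOM, against 0.618% and 0.876% of all genes. Against WT alone 1 was higher (Hist1h4i) and 8 were lower, against 4.5% and 3.06% of all genes, and the estimate for Hist4h4 was -0.092.

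These calls rested on few libraries. Counts ran from 2 to 10 higher and 0 to 5 lower over the 6 fits without 1 library. Each of these fits leaves 1 library in a group, and in each fewer of all genes were called than in the main fit. The histone median was -0.06 without HOM 2, -0.22 without HOM 1 and -0.09 without WT 2. It was -0.17 without HET 2, -0.10 without WT 1 and -0.05 without HET 1. The calls of Hist1h3f and Hist1h4m were the 2 kept in all 6 fits. In both genes HET was near 0, at 0.757 and 0.643 CPM for Hist1h3f and 0.151 and 0 CPM for Hist1h4m. Against WT alone neither was called higher, and HOM stood at 1.82 and 0.605 times WT. With a covariate for sex, 0 histone genes were higher and 1 was lower. Over all genes 0.114% and 0.177% were called, down from the 3.44% and 2.44% above. DMSO 2 against DMSO 1 and 3 sets this covariate, so it cannot separate sex from genotype in HOM. When libraries were scaled to epithelial markers, which moved the median of all genes to 0.48, 27 were higher and 0 lower, against 61.2% and 0.542% of all genes, and the estimate for Hist1h1c was 0.094. Scaled to library totals, 11 were higher and 0 lower, against 3.38% and 0.612% of all genes, whose median was 0.15. Of the 32 S-phase genes 0 were called here (edgeR, 2 higher and 4 lower at an unadjusted p under 0.05). The epithelial, mesenchymal and muscle sums given above moved with these groups. So did the 6 hemoglobin genes, taken from a longer list of red cell markers after values were seen: they summed to 12.7-14.2 CPM in HOM, 0.806-5.30 in WT, 4.77-6.43 in HET, 0.520-4.93 in DMSO and 0.550-1.84 in FGFRi. Hba-a1 was called higher in HOM (2.22 ± 0.61, adjusted p = 0.0449). The part of these cell types was not tested.

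HET was lower than WT in 14 of 56 histone genes and higher in 0, against 0.372% and 0.851% of all genes, with a median log2 difference of -0.43 (0.0082 over all genes). At an unadjusted p under 0.05 34 were lower and 0 higher, and DESeq2 called 21 lower and 0 higher, against 0.576% and 1.15% of all genes. In 44 of the 56 both HET libraries lay below both WT libraries, which held for 22.1% of all genes. The 4 fits without 1 library each leave 1 library in a group. In them the histone median was -0.49 without WT 1, -0.41 without WT 2, -0.67 without HET 1 and -0.27 without HET 2. The medians of all genes were 0.018, -0.0061, 0.0067 and 0 in the same order. Hist4h4, Hist1h4m and Hist1h2ab were called in all 4. For Hist4h4 the log2 difference was -1.51 ± 0.13 (adjusted p = 1.40e-05). Hist1h2ab, at 43.8 and 43.6 CPM in WT and 21.95 and 17.6 in HET, differed by -1.14 ± 0.16 (adjusted p = 0.00260). The S-phase list had 0 genes called in either direction in this comparison (edgeR, 0 higher and 6 lower at an unadjusted p under 0.05) and a median of -0.07. In HET the mesenchymal sum was above and the epithelial sum below that of WT, with 4 of 12 mesenchymal and 5 of 11 muscle markers called higher, and their part was not tested.

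The low HET genes were in part neighbours. In map order of the Hist1 cluster, Hist1h3f and Hist1h4f stand side by side, as do Hist1h2bg, Hist1h2bf and Hist1h2ad, followed a little further on by Hist1h2be. HET stood at 0.0122, 0.267, 0.255, 0.428, 0.189 and 0.332 times WT in these 6 genes, in the order named. Genes between them stood higher: Hist1h1d was at 0.732, Hist1h3e at 0.899, Hist1h2ae at 0.570, Hist1h3d at 0.652 and Hist1h4d at 0.719 times WT. Low ratios were also found outside these 6 genes. Hist1h4m was at 0.00715, Hist1h2ac at 0.378 and Hist1h2ab at 0.453 times WT, and Hist4h4, on another chromosome, at 0.350. Several of the 6 neighbouring genes named first were also low in library 3 of both DMSO and FGFRi. Hist1h3f was at 87.7, 67.3 and 19.9 CPM in DMSO and 61.8, 70.0 and 13.3 in FGFRi. Hist1h4f was at 117, 119 and 42.5 CPM in DMSO and 58.5, 56.6 and 27.6 in FGFRi. Of 56 members with a mean of at least 1 CPM, 6 were under 0.67 times the mean of libraries 1 and 2 in both DMSO 3 and FGFRi 3, and 5 of those were also under 0.67 times WT in HET. Taken singly, 8 of the 56 were under that limit in DMSO 3, 7 in FGFRi 3 and 23 in HET over WT, where the median ratio was 0.73. The 5 are Hist1h3f, Hist1h4f, Hist1h2bg, Hist1h2bf and Hist1h2be, and the other is Hist1h3c. The limit of 0.67 was chosen after the values were seen. With DMSO 3 and FGFRi 3 both left out, 35 histone genes fell with the inhibitor and 0 rose.

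**Figure D5:**
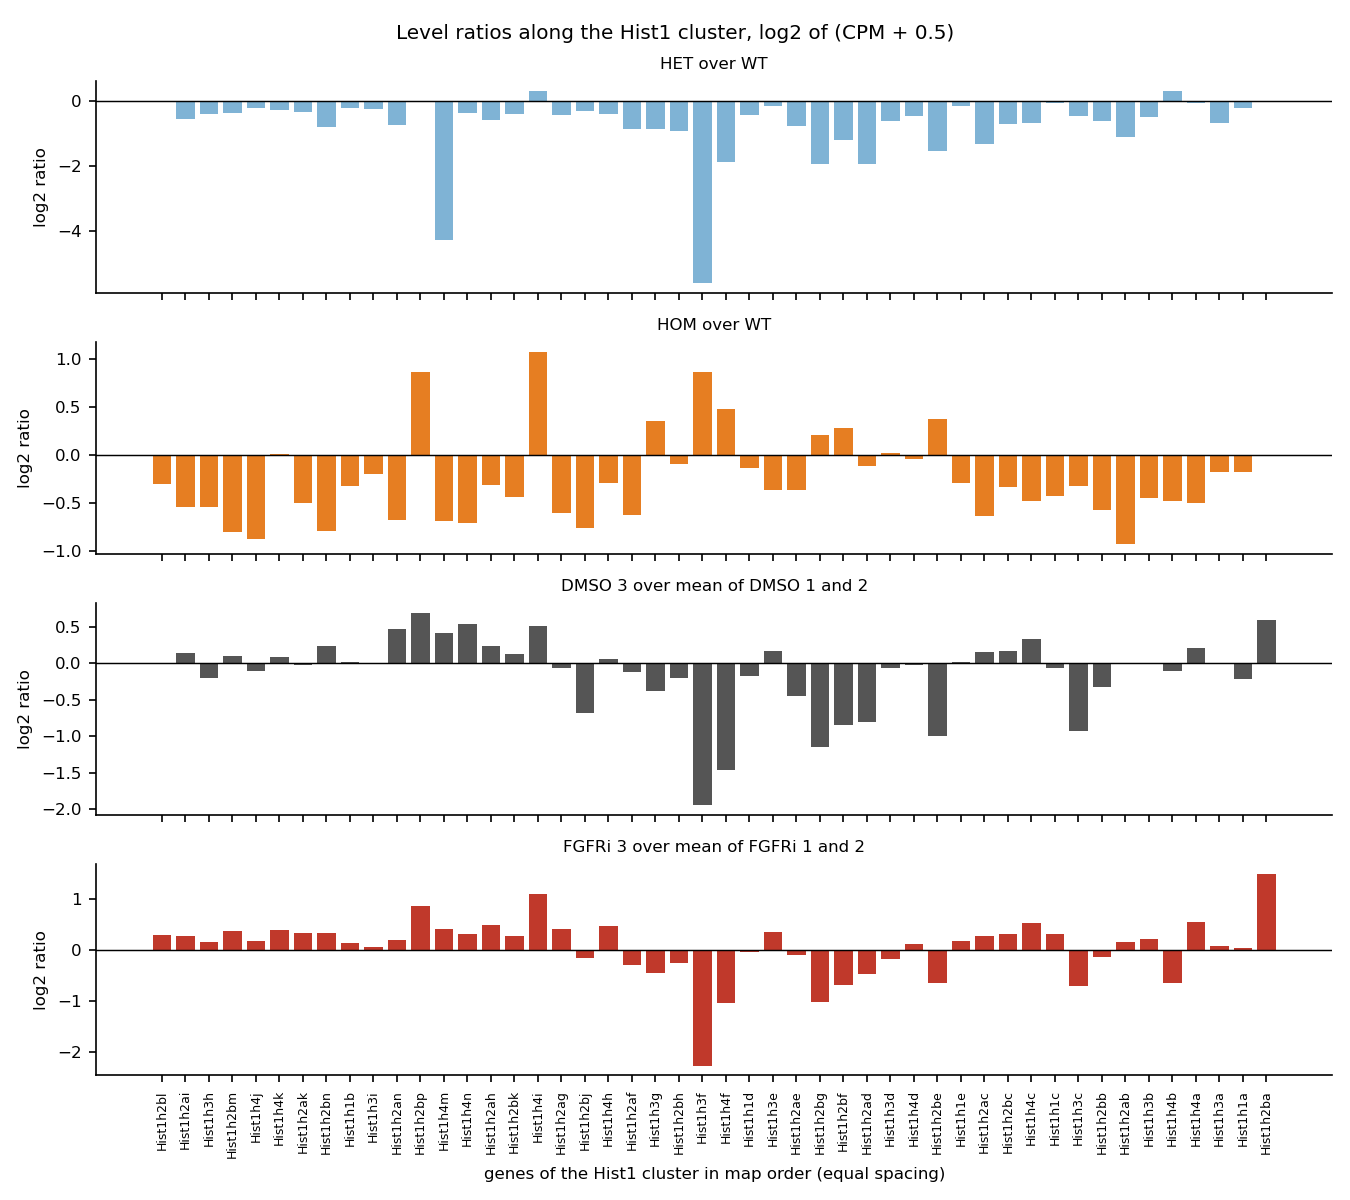
Log2 ratios of (CPM + 0.5) along the Hist1 cluster, 1 bar per gene with a mean of at least 1 CPM, in map order with equal spacing (x axis). Panels give HET over WT, HOM over WT, DMSO 3 over the mean of DMSO 1 and 2, and FGFRi 3 over the mean of FGFRi 1 and 2. Hist1h3f and Hist1h4f stand low in all panels except HOM over WT.

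DMSO and WT glands share the labelled wild-type genotype, and differ in the solvent and in the set of glands they come from. Between them 5 of 56 histone genes were higher in DMSO and 1 lower, against 1.27% and 0.984% of all genes, with a median of 0.04. Hist1h2ba, the testis-type H2B gene, was at 15.4, 15.2 and 23.3 CPM in DMSO and at 2.39, 11.8 and 20.7 in FGFRi, with 0 counts in all 6 libraries of the cross. Against a floor of 3 counts over the 2 WT libraries it was at least 137-fold higher in DMSO than in WT. Hist1h4m split the libraries another way, with a difference also within the cross. It was at 10.03 and 11.1 CPM in WT and 7.76 and 5.05 in HOM. Its counts were 2 in all of HET, 1 in all of DMSO and 3 in all of FGFRi. The ratio of WT to DMSO was 331 (95% exact counting interval 58.8 to 13129) and that of WT to HET 134 (36.8 to 1116). Hist1h4n, whose coding sequence is identical, was read in every library at 11.1 to 55.5 CPM. Hist1h4i read 62.1, 58.9 and 86.5 CPM (DMSO), 25.5, 33.4 and 63.5 (FGFRi), 19.5 and 18.5 (WT), 23.1 and 23.6 (HET), and 38.5 and 42.4 (HOM). It was higher in DMSO than in WT by 1.85 ± 0.28 (adjusted p = 0.00187). Hist1h2ba, Hist1h4i and Hist1h4m were called in all 5 fits without 1 library, and the other 3 called genes were Hist1h2bp, Hist3h2ba and Hist1h2bl. The count of higher genes was 2 without WT 1 or WT 2 and 3 without DMSO 1 or DMSO 3, and the count of lower genes was 2 without DMSO 1. With a covariate for sex 2 were higher and 1 lower, against 1.19% and 1.84% of all genes. In that fit DMSO 2 alone stands against WT, since DMSO 1 and 3 are female.

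The effect of the inhibitor and the difference in HOM were compared directly by the test of the difference between them, FGFRi minus DMSO less HOM minus controls. Of 56 histone genes 13 were lower in this contrast and 0 higher, against 1.41% and 1.36% of all genes. The median was -0.43 (-0.39 without Hist1h4m and Hist1h2ba) and -0.0070 over all genes. At an unadjusted p under 0.05 26 were lower and 0 higher, and DESeq2 called 18 lower and 0 higher. The smallest p-values were those of Hist4h4, at -1.06 ± 0.15 (adjusted p = 0.00130), and Hist1h4d, at -0.85 ± 0.12 (adjusted p = 0.00179). Hist1h4d fell with the inhibitor and read 398 and 394 CPM (WT), 313 and 257 (HET), and 362 and 406 (HOM), with a difference of HOM from controls of 0.19 ± 0.09 (adjusted p = 0.246). The count was 7 without HOM 1 and 4 without HOM 2, and Hist1h2be, Hist1h4d and Hist4h4 were called in all 12 fits without 1 library.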

How the data were processed

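The deposited values are raw counts of reads per gene, whole numbers without normalisation, made by the authors with bcl2fastq, STAR and build GRCm39, per the submitters' processing notes. For the counting program, strand, reads that map to several places, and the annotation, nothing is given in the sources used here. Symbols came from GENCODE M21 by Ensembl identifier (52403 of 52636 matched). 3 histone pseudogenes were left out.

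Tests used edgeR 4.0.16 in R 4.3.3: TMM factors, filterByExpr (minimum count 10, minimum total 15, 15859 genes kept), 1 coefficient per group over all 12 libraries, the quasi-likelihood F test (two-sided), and Benjamini-Hochberg adjustment over all genes, with calls at an adjusted p under 0.05. The residual df was 7. An SE is the log2 change divided by the root of F. Sums run over all members without a filter and have no test. Floors and counting intervals (95%, exact) cover counting error only, since no molecular identifiers are reported. The model was tested on simulated data.

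Members, gene lists and tests were chosen with earlier results of these data known. Named genes are, per family, the 4 with the highest mean CPM and up to 4 called in FGFRi against DMSO or in HOM against controls, in order of p. From other lists up to 4 are named. Alternatives were other scalings, no filter, DESeq2 1.42.0, the compared groups alone, a replicate block, each library left out, and WT or HET alone as controls. Added after the data were seen were a sex covariate, crossed WT numbers in the block, removal of DMSO 3 with FGFRi 3, and sums of HOM against WT or HET alone. Over all genes tested, same-numbered libraries did not deviate together, although several Hist1 genes were low in library 3 of both DMSO and FGFRi.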

Additional observations from a re-analysis of the deposited data

Results flagged for a closer look

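The FGFRi effect and the HOM difference were tested against each other, and 13 histone genes differed between the 2 interventions, all of them lower in the inhibitor contrast. The values below are log2 differences of the FGFRi effect minus the HOM effect. In the H4 family they were -1.06 for Hist4h4, -0.85 for Hist1h4d, -0.93 for Hist1h4k, -2.47 for Hist1h4f, -1.63 for Hist1h4i, -0.74 for Hist1h4h and -0.56 for Hist2h4. In the H2B family they were -2.00 for Hist1h2be, -1.67 for Hist1h2bf and -1.73 for Hist1h2bp. H3 genes gave -4.39 for Hist1h3f and -1.06 for Hist1h3g, and the linker histone Hist1h1d gave -0.67. Hist1h3f, Hist1h4f, Hist1h2be, Hist1h2bf, Hist1h3g, Hist4h4 and Hist1h4d were also called lower in HET than in WT, and HET is part of the controls of HOM. The HOM libraries were female and their controls male. With a covariate for sex 10 histone genes were called lower in this contrast and 0 higher. That covariate is set by DMSO 2 against DMSO 1 and 3 alone.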

How the results depend on the processing

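Counts are of histone genes called. In FGFRi minus DMSO, 37 lower became 20 with library totals, 9 with epithelial scaling, 35 without DMSO 3 and FGFRi 3, and 24 to 34 without 1 library, and the log2 ratio of sums, -0.55, became -0.17 with epithelial scaling and ran from -0.60 to -0.49 without 1 library. In HOM minus controls, 3 lower became 8 with WT alone, 0 with HET alone, 0 with library totals, 0 with epithelial scaling, 7 without a filter, 1 with a sex covariate, 5 with the compared groups alone and 0 to 5 without 1 library. There, 9 higher became 1 with WT alone, 27 with epithelial scaling, 0 with a sex covariate and 2 to 10 without 1 library. The log2 ratio of sums, -0.01, became -0.23 with WT alone, 0.20 with HET alone, 0.14 with library totals and 0.47 with epithelial scaling, and ran from -0.09 to 0.07 without 1 library. The difference of both effects went from 13 lower to 24 without a filter and 4 to 17 without 1 library. HET minus WT went from 14 lower to 29 without a filter and 3 to 21 without 1 library. DMSO minus WT went from 1 lower to 4 with epithelial scaling, 6 without a filter, 3 with the compared groups alone and 1 to 2 without 1 library, and from 5 higher to 3 with library totals, 3 with epithelial scaling, 2 with a sex covariate and 2 to 5 without 1 library. The cause was not tested, except that fits without 1 library hold fewer samples.

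Among the values given above, signs turned with epithelial scaling for Hist1h1a (0.083), Hist1h2ab (0.22), Hist1h2bb (0.048), Hist1h2bc (0.023), Hist1h2bn (0.079) and Hist1h3i (0.032) in FGFRi minus DMSO, and for Hist1h1c (0.094) and the sums of H1 (0.31) and H2A (0.26) in HOM minus controls. With WT alone they turned for Hist1h4m (-0.74), Hist4h4 (-0.092), Hist1h4d (-0.045) and the sums of H2B (-0.30), H3 (-0.13) and H4 (-0.14), with HET alone for the H2A sum (0.11), and with a sex covariate for Hist1h4m (-0.47).

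Over all genes tested, correlations of same-numbered libraries were -0.15 to -0.03, so the numbers were not read as pairs. With a replicate block FGFRi minus DMSO kept a count of 37 lower, while DMSO minus WT had 2 lower and 3 higher. With the WT numbers crossed in the block HET minus WT gave 21 lower and HOM minus controls 11 higher and 4 lower.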

Other observations

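Hist1h2al, annotated as a processed pseudogene of the Hist1 cluster and therefore outside the 67 genes, was counted 1356, 3768 and 1043 times in DMSO 1 to 3 and 628, 932 and 2309 times in FGFRi 1 to 3. In the 6 libraries of the cross it had 0 to 8 counts, the same split as that of Hist1h2ba. Hist3h2bb-ps, another pseudogene left out, was counted in every library, at 26 to 188.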
